A study of Mus musculus with 24 samples.

Results

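The MHC class I genes were followed in the nuclei of the mouse ventral hippocampus. They comprise 5 genes, H2-K1, H2-D1, H2-T22, H2-T23 and B2m, chosen by name from the 33902 gene symbols of the single-nucleus RNA table, and all 5 had counts in both strains. A class I molecule is a heavy chain bound to beta-2 microglobulin, the light chain that B2m encodes. The complex carries short peptides from inside the cell to its surface, where CD8 T cells and natural killer cells read them. H2-K1 and H2-D1 encode the classical, highly polymorphic heavy chains. H2-T22 and H2-T23 encode nonclassical heavy chains of the T region, of which H2-T23 makes Qa-1, a ligand of receptors on natural killer cells, and the H2-T22 product is bound by gamma delta T cells. Brain neurons are known for low class I levels, and microglia, the resident macrophages of the brain, for higher ones.

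Nuclei came from adult male mice of 2 inbred strains, B6 (C57BL/6J) and DBA (DBA/2J), aged 10 to 16 weeks and otherwise untreated. Each strain gave 2 snRNA-seq and 2 snATAC-seq libraries, named library 2 and library 3 in the tables, with tissue of about 2 animals pooled per library. snRNA-seq counts transcripts in single nuclei, and snATAC-seq counts fragments of open chromatin. Counts were deposited summed per library for 17 RNA cell types, 12 neuronal and 5 non-neuronal, and for 15 ATAC cell types. B6 carries the H2 haplotype b and DBA the haplotype d, so the strains differ in the alleles of the 4 heavy chain genes themselves. Reads of DBA were aligned to the B6 reference with single-base DBA variants put in, a sequence that holds neither insertions nor gene copies particular to haplotype d. H2-L, a close relative of H2-D1 that haplotype d carries and haplotype b lacks, is no symbol of the table, and its reads and those of H2-D1 cannot be told apart.

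The RNA libraries held 43048686 to 56452272 counts from 6312 to 8707 nuclei, and single columns of a cell type held from 139713 to 11352265 counts. Levels are given as CPM, that is counts scaled to the same total (1e+06) in every column. In a neuronal sum, 3 counts correspond to 0.0627 to 0.0846 CPM, and in a non-neuronal sum to 0.350 to 0.418 CPM. Sorting enriched the RNA nuclei for neurons. Markers were checked for the major types, not for the subtypes of excitatory and inhibitory neurons. The list of 8 microglial markers reached 9045 to 9965 CPM in NN-MGC, the microglia, and that of 5 astrocyte markers 3049 to 3387 CPM in NN-Astro. Lymphocyte markers (3 of 5 listed symbols in the table) summed to at most 5.06 CPM in NN-MGC, where Cd8a was at 0. The 4 markers listed for other myeloid cells (Mrc1, F13a1, Cd163 and Ptprc) summed to 787 to 956 CPM there. The part of such cells in the values of NN-MGC, called microglia here, was not tested. Markers of CR-CR were less clear: the 3 Cajal-Retzius markers summed to 1287 CPM there in DBA library 3, below the 1586 CPM of Inh-Lamp5 in that library, and to 3035 to 5231 CPM in the other libraries. In a sum over such pooled nuclei taken alone, fewer cells of a type and less RNA per cell cannot be told apart. Nuclei were also counted per type. CR-CR held 171 and 138 nuclei in B6 libraries 2 and 3 and 45 and 46 in those of DBA. NN-ODC, the mature oligodendrocytes, held 844 and 972 in B6 and 535 and 510 in DBA.

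On GRCm38, the build of the tables, H2-K1 lies at chr17:33996017-34000347 on the minus strand, H2-D1 at chr17:35262730-35267499 on the plus strand, H2-T23 at chr17:36029773-36032855 and H2-T22 at chr17:36037128-36042747, both on the minus strand. B2m lies outside the H2 region, at chr2:122147686-122153083 on the plus strand, inside the antisense gene Patl2. H2-T23 lies wholly within the antisense gene A930015D03Rik, which also covers 1308 bases of H2-T22. Whether strand was used in counting is not given in the sources used here. Of the 90-base windows of each gene, 5.45% of H2-K1, 3.40% of H2-D1, 15.6% of H2-T22 and 10.09% of H2-T23 occurred a further time on the reference chromosomes, whereas 0 of 5309 windows of B2m did. Reads from such windows cannot be assigned to a single place, and levels of the 4 heavy chain genes are uncertain to that extent. These shares count exact repeats in the B6 reference only.

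The promoter peaks, described further on, differed between the strains for all members but H2-T23. The 200 bases before a RefSeq start site of each gene lie at these peaks and are therefore shown. They are the RefSeq promoter sequences of GRCm38.p6, which is the B6 allele, printed 5′ to 3′ in the direction of the gene. Class I promoters are known for an NF-kB site, an interferon response element read by IRF factors, and the X2 and Y boxes bound together with the coactivator NLRC5. Capitals mark matches, on either strand, to GGGGATTCC (NF-kB), AANNGAAA (IRF), TGACG (X2 box) and CCAAT (Y box), none of which overlap here.
H2-K1: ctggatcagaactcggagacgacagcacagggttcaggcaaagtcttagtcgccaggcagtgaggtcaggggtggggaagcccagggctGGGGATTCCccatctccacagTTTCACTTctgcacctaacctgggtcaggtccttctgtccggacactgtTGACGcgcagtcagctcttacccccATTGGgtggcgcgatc
H2-D1: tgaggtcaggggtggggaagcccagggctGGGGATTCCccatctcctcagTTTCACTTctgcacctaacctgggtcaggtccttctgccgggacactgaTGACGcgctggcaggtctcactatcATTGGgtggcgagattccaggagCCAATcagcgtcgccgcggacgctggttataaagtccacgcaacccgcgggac
H2-T22: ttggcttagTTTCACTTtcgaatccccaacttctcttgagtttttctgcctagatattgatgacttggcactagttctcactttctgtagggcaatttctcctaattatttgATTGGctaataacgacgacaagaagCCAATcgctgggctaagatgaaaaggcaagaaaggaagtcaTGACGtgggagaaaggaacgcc
H2-T23: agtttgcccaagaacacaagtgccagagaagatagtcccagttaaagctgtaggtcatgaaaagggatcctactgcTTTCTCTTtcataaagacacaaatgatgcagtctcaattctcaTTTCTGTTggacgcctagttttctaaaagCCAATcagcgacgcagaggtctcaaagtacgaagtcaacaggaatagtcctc
B2m: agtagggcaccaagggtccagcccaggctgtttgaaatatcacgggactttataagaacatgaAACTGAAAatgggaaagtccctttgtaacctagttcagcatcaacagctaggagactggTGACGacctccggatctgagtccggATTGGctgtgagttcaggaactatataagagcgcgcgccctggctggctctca

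They cover chr17:34000348-34000547 for H2-K1, chr17:35262894-35263093 for H2-D1, chr17:36042743-36042942 for H2-T22, chr17:36032702-36032901 for H2-T23 and chr2:122147487-122147686 for B2m. The gene intervals given above are those of GENCODE, from the outermost transcript ends, and the RefSeq starts differ from them. The printed bases therefore lie within the GENCODE interval wholly for H2-D1, mostly for H2-T23 and by a few bases for H2-T22 and B2m. H2-K1 and H2-D1 held all 4 motifs in the same order. The NF-kB letters began 111 bases before the start of H2-K1 and 171 bases before that of H2-D1, followed in both genes by the same IRF match, TTTCACTT. A further RefSeq entry of H2-K1, at chr17:34000334-34000533, was not printed. Its NF-kB letters began 125 bases before the start, and it held a further Y box match. H2-T22 and B2m held the IRF, X2 and Y letters and no match to the NF-kB letters. H2-T23 held 2 IRF matches and a Y box, and neither the NF-kB nor the X2 letters. Among 32851 promoter windows of 250 bases, 0.213% held the NF-kB letters, 21.3% the IRF letters, 17.8% the X2 box and 33.8% the Y box. All 4 were held by 5 windows, those of H2-K1 and H2-D1 among them. A match describes letters in the B6 sequence and is no evidence of binding.

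Across cell types, transcripts of the class I genes were most abundant in microglia and in NN-VLMC, the vascular and leptomeningeal cells, and scarce in neurons. In microglia, H2-K1 was at 68.0 and 60.5 CPM in B6 libraries 2 and 3 and at 59.2 and 84.3 CPM in those of DBA. In the neuronal sum it was at 1.09 and 1.02 CPM in B6 and at 2.72 and 2.71 CPM in DBA. Every microglial value thus lay above every neuronal one. B2m, the partner of every heavy chain here, was at 148 and 120 CPM in B6 microglia and at 137 and 244 CPM in DBA microglia. Its neuronal sums were 3.71 and 3.53 CPM in B6 and 1.89 and 2.51 CPM in DBA. DBA library 3 held the highest of the 4 microglial values for every member.

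**Figure D1:**
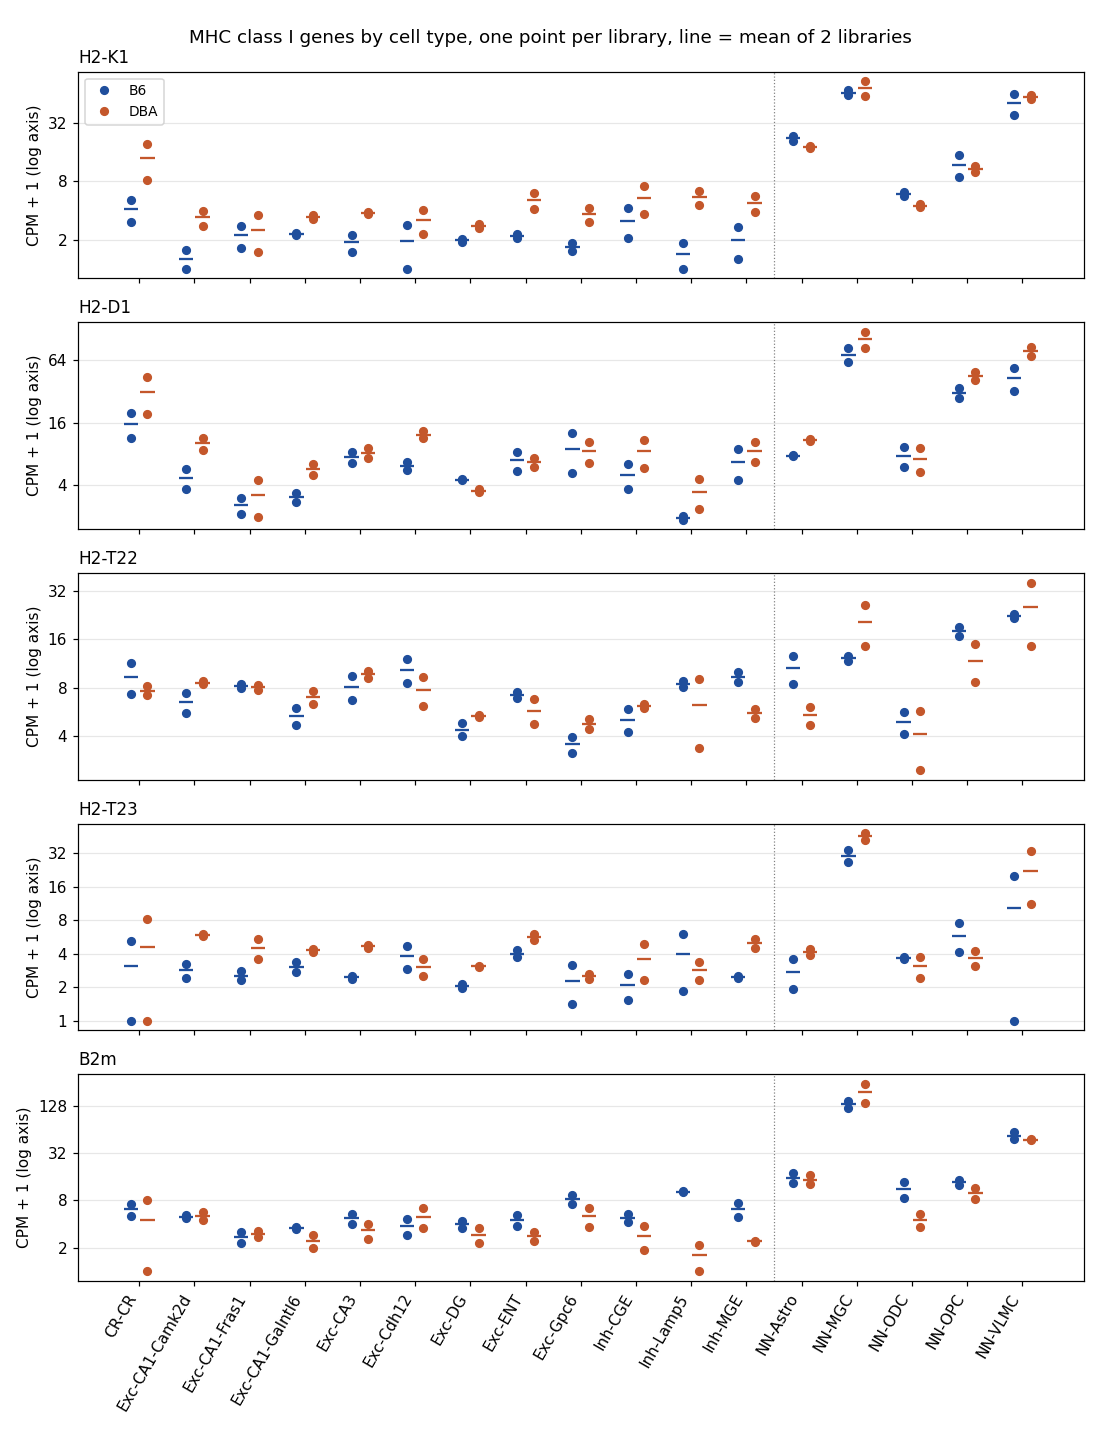
CPM + 1 (log axis) of the 5 MHC class I genes in 17 cell types, with one point per library and a line at the mean of the 2 libraries of a strain. Neuronal types stand left of the dotted line and non-neuronal types right of it, and NN-MGC and NN-VLMC sit above most neuronal types in every panel, with the smallest distance for H2-T22.

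The non-neuronal types were set against the neuronal sum of the same library to ask which glia carried the class I transcripts. All 19 of the 25 pairs of gene and type that passed the test were higher than in neurons (edgeR quasi-likelihood test, Benjamini-Hochberg adjusted p under 0.05). In microglia, 5 of 5 members passed, beside 67.3% of all symbols tested. The log2 fold change was 5.42 for B2m (SE 0.224, adjusted p = 1.11e-17), 4.87 for H2-K1 (SE 0.264, adjusted p = 4.14e-15) and 3.75 for H2-D1 (SE 0.177, adjusted p = 2.00e-16). H2-T23 followed at 3.56 (SE 0.321, adjusted p = 1.56e-10). H2-T22 rose least, by 1.05 (SE 0.357, adjusted p = 0.0113), and without DBA library 3 its value was 0.64 with an adjusted p of 0.159. The members were thus unevenly raised in microglia, with the nonclassical H2-T22 at the low end.

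In NN-VLMC, which line vessels and the meninges, 5 of 5 members passed beside 58.8% of all symbols, from a log2 fold change of 4.48 for H2-K1 (SE 0.319) down to 1.56 for H2-T22 (SE 0.371, adjusted p = 0.000710). In NN-OPC, the oligodendrocyte precursors, 4 of 5 passed beside 55.1%. There H2-D1 led, with 33.1 and 26.3 CPM in B6 and 40.0 and 48.4 CPM in DBA and a log2 fold change over neurons of 2.79 (SE 0.169, adjusted p = 7.43e-14). H2-T23 was the member that did not pass in precursors, at 0.55 (SE 0.437, adjusted p = 0.297).

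In NN-Astro, the astrocytes, 3 of 5 members passed beside 69.2% of all symbols. H2-K1 led there, at 22.5 and 19.6 CPM in B6 and 16.6 and 17.3 CPM in DBA, with a log2 fold change of 3.35 (SE 0.231, adjusted p = 4.53e-13), while that of H2-D1 was 0.72 (SE 0.185, adjusted p = 0.00119). The classical genes were thus ranked differently across the 17 types, H2-K1 with rank 3 in astrocytes and rank 4 in precursors and H2-D1 with rank 5 in astrocytes and rank 3 in precursors. In NN-ODC, the mature oligodendrocytes, 2 of 5 passed beside 68.1%, B2m at 1.43 (SE 0.329, adjusted p = 0.000415) and H2-K1 at 1.34 (SE 0.392, adjusted p = 0.00382). Neither of these held against all other types of the library together, where the values were 0.31 and 0.09, nor did H2-D1 in astrocytes, at 0.20.

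The order of levels was firm only at its top. For H2-K1 the order was microglia, NN-VLMC, astrocytes and precursors, and each of these 3 steps held in 4 of 4 libraries. B2m ran from microglia (mean of the strain means 162 CPM) to NN-VLMC (49.8 CPM) to astrocytes (14.1 CPM), with 4 of 4 libraries at both steps, and the step from astrocytes to precursors (10.8 CPM) held in 3. H2-D1 was higher in microglia (85.5 CPM) than in NN-VLMC (58.9 CPM) in 4 of 4 libraries and in CR-CR, the Cajal-Retzius neurons (22.6 CPM), than in astrocytes (8.26 CPM) in 4 of 4, though each column of CR-CR held 3 to 9 counts of it. H2-T22 had no firm first place, NN-VLMC (22.9 CPM) standing above microglia (15.3 CPM) in 3 libraries. From rank 5 downwards, 0 steps in the order of any member held in 4 of 4 libraries.

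The symbols most like each member over the 17 cell types were taken from 13300 candidates by Pearson's r of log2(mean CPM + 1). For B2m these were Irgm2 (r = 0.971), Tln1 (0.963) and Kdm3b (0.957), and for H2-K1 Stk17b (0.978), Washc3 (0.973) and Apobec3 (0.971). H2-T23 was followed by Cysltr1 (0.968), Gm26740 (0.966) and Gm11476 (0.966), and H2-D1 by Commd2 (0.950), E130317F20Rik (0.927) and Ddx60 (0.923). For H2-T22 the values were lower, at 0.883 for Csnk1d, 0.882 for Slain2 and 0.881 for Tspo. Among the members the closest pair was H2-K1 and B2m (r = 0.931) and the least close H2-T22 and B2m (r = 0.701). The points are 17 types from the same 4 libraries, and all of these symbols except Csnk1d and Tspo had their highest level in microglia.

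Summed over the 12 neuronal types, H2-K1 and H2-T23 were higher in DBA and B2m was lower. H2-K1 was at 51 and 49 counts in the B6 libraries and at 122 and 96 counts in the DBA libraries, or 1.06 ± 0.05 CPM against 2.71 ± 0.01 CPM (mean ± SD, n = 2 libraries per strain). H2-T23 was at 1.88 and 1.48 CPM in B6 and at 3.30 and 3.18 CPM in DBA. B2m ran the other way, with 3.71 and 3.53 CPM in B6 and 1.89 and 2.51 CPM in DBA. The strains did not overlap for any of these genes, nor for H2-D1, at 4.46 and 3.93 CPM in B6 and 6.37 and 4.74 CPM in DBA, while those of H2-T22 did. Groups that did not overlap were common, however, at 69.3% of all symbols tested in this sum, and an exact permutation test of so few libraries has 0.33 as its smallest p.

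**Figure D2:**
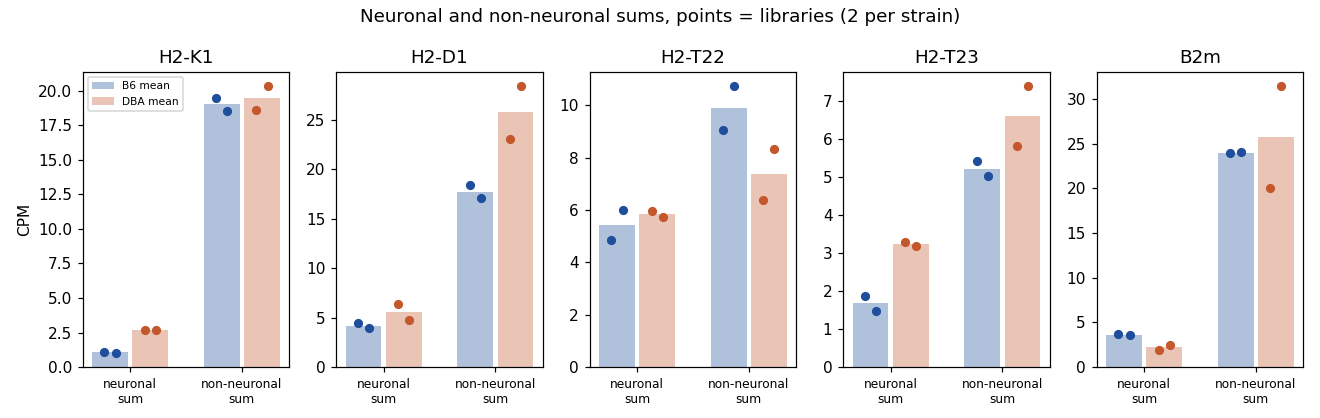
CPM of each MHC class I gene in the sum of neuronal types and the sum of non-neuronal types, with points for the 2 libraries of each strain and bars for their mean. In neurons H2-K1 and H2-T23 stand higher in DBA and B2m higher in B6, and in non-neuronal types H2-K1 and B2m overlap between the strains.

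In the fit across all symbols, 3 of 5 members passed in the neuronal sum, beside 34.7% of all 20608 symbols tested. The log2 fold change of DBA over B6 was 1.31 for H2-K1 (SE 0.187, edgeR adjusted p = 0.000271) and 0.90 for H2-T23 (SE 0.177, adjusted p = 0.00234). That of B2m was -0.78 (SE 0.170, adjusted p = 0.00435), so the light chain and these heavy chains moved in opposite directions. H2-D1 had a value of 0.37 (SE 0.163, adjusted p = 0.101), and H2-T22 of 0.06 (SE 0.139, adjusted p = 0.787), with which no difference of theirs was shown. Without Exc-DG, the dentate granule neurons that gave the most counts, H2-D1 passed at 0.50 (adjusted p = 0.0385), and without DBA library 3 at 0.57 (adjusted p = 0.0159).

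The direction was widespread among neuronal types for H2-K1, whose DBA mean was above its B6 mean in 12 of 12 types, a pattern met by 6.89% of the symbols tested. H2-T23 was higher in DBA in 10 of 12 types, where 22.4% of symbols reached at least that number. B2m was lower in DBA in 9 of 12, where 22.1% of symbols did so, the exceptions being Exc-CA1-Fras1, Exc-CA1-Camk2d and Exc-Cdh12. H2-D1 was higher in 9 types and lower in 3, and H2-T22 was split 6 to 6. The 12 types share their libraries and are not replicates of each other.

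Several lists of markers of other cells also differed between the neuronal sums, where 69.3% of all symbols tested did not overlap between the strains. The 5 astrocyte markers summed to 46.3 and 47.7 CPM in B6 and to 45.9 and 43.9 CPM in DBA. Of these, 1 was higher in both DBA libraries and 1 in both B6 libraries. The 8 microglial markers summed to 282 and 274 CPM in B6 and to 217 and 213 CPM in DBA, with 5 of 8 higher in both B6 libraries. The 6 leptomeningeal markers summed to 49.2 and 49.1 CPM in B6 and to 77.2 and 87.1 CPM in DBA, with 6 of 6 higher in DBA. The 5 oligodendrocyte markers summed to 151 and 154 CPM in B6 and to 98.0 and 98.3 CPM in DBA, with 4 of 5 higher in both B6 libraries, and the 3 precursor markers to 14.1 CPM in both B6 libraries and to 9.49 and 10.2 CPM in DBA. Within each library, the neuronal level was 2.14% to 2.98% of the microglial level for the summed microglial markers and, gene by gene, ranged from 0.0468% for Inpp5d to 24.6% for P2ry12. For B2m it was 2.51% and 2.95% in B6 and 1.39% and 1.03% in DBA, and for H2-K1 1.60% and 1.69% in B6 and 4.59% and 3.21% in DBA. H2-T22 stood at 22.6% to 55.9%. The part of such transcripts in the neuronal levels of the members was not tested. The antisense gene A930015D03Rik was lower in the DBA neuronal sums, at 37.5 and 41.5 CPM against 131 and 115 CPM in B6, opposite in direction to H2-T23, and Patl2, antisense to B2m, overlapped between the strains at 0.620 to 1.31 CPM.

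In the sum of the 5 non-neuronal types, H2-D1 was higher in DBA, and H2-K1 and B2m overlapped between the strains. Reads of H2-L cannot be told from those of H2-D1. The part of H2-L in this and other strain differences of H2-D1 was not tested. H2-D1 was at 18.4 and 17.04 CPM in B6 and at 23.04 and 28.4 CPM in DBA, a log2 fold change of 0.59 (SE 0.149, edgeR adjusted p = 0.0172). It was the 1 member of 5 that passed, beside 19.9% of all symbols tested, and without DBA library 3 its value was 0.43 with an adjusted p of 0.146. H2-T22 was at 9.05 and 10.7 CPM in B6 and at 6.38 and 8.32 CPM in DBA, with a log2 fold change of -0.38 (SE 0.213, adjusted p = 0.248). H2-T23 was at 0.40 (SE 0.242, adjusted p = 0.290). The fold changes of H2-K1 and B2m were 0.09 (SE 0.141) and 0.15 (SE 0.185), with adjusted p of 0.722 and 0.613. Groups without overlap made up 60.5% of all symbols in this sum. The 5 oligodendrocyte markers were lower in the DBA sums, at 2601 and 2679 CPM against 4055 and 4136 CPM. Within NN-ODC they were at 13997 and 12942 CPM in B6 and at 12414 and 12827 CPM in DBA. NN-ODC held 844 and 972 nuclei in B6 and 535 and 510 in DBA. The part of this uneven make-up in the members' values was not tested.

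Whether the strain difference itself differed between the classes was tested as an interaction, that is the DBA minus B6 difference in non-neuronal types minus that in neuronal types. It passed for 2 of 5 members, beside 8.6% of all 20561 symbols tested. For H2-K1 it was -1.25 on the log2 scale (SE 0.232, edgeR adjusted p = 0.00316), the DBA excess being present in neurons and not shown in the other cells. For B2m it was 0.88 (SE 0.197, adjusted p = 0.0109), and without DBA library 3 it was 0.73 with an adjusted p of 0.112. H2-D1, H2-T22 and H2-T23 had interactions of 0.21, -0.45 and -0.54 with adjusted p of 0.673, 0.297 and 0.335, so a difference between the classes was not shown for them.

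Within single cell types the counts were few, and 50 of 85 pairs of gene and type passed the filter on low counts. Of these, 7 passed the test in the edgeR fits, 4 higher and 3 lower in DBA, which is 14% of the pairs tested and lies within the range of the shares of all symbols given below. DESeq2 called 0 of the pairs, with 4 at an unadjusted p under 0.05, where edgeR had 23.

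Of the excitatory types, Exc-ENT had 1 of 5 members called, beside 18.6% of all symbols. This was H2-K1, at 1.31 and 1.06 CPM in B6 and 5.03 and 3.12 CPM in DBA, with a log2 fold change of 1.75 (SE 0.498, adjusted p = 0.0156). In Exc-CA3, 2 of 5 were called beside 21.9%, H2-K1 at 1.54 (SE 0.488, adjusted p = 0.0360) and H2-T23 at 1.29 (SE 0.387, adjusted p = 0.0273). H2-T23 was at 1.39 and 1.53 CPM there in B6 and at 3.76 and 3.52 CPM in DBA. In Exc-CA1-Galntl6, 1 of 5 was called beside 26%, and it was H2-D1, at 2.34 and 1.76 CPM in B6 and 5.44 and 3.96 CPM in DBA, with a log2 fold change of 1.17 (SE 0.331, adjusted p = 0.0125). In Exc-DG, 0 of 5 were called beside 25.6% of all symbols. H2-D1 was at 2.66 and 2.41 CPM there in DBA and at 3.44 and 3.61 CPM in B6 and did not pass (adjusted p = 0.213). Exc-CA1-Fras1 (20.2% of all symbols called), Exc-CA1-Camk2d (9.4%) and Exc-Gpc6 (12.5%) had 0 calls among the 2, 4 and 2 members tested.

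Among the inhibitory types, Inh-MGE had 1 of 5 members called, beside 11.8% of all symbols. B2m was at 6.51 and 3.99 CPM there in B6 and at 1.47 and 1.40 CPM in DBA, with a log2 fold change of -1.85 (SE 0.493, adjusted p = 0.0192). H2-K1 had a value of the opposite sign, 1.98 (SE 0.637), and missed the threshold with an adjusted p of 0.0517. In Inh-Lamp5 (8.43%), Inh-CGE (8.13%), Exc-Cdh12 (3.3%) and CR-CR (2.2%) 0 members had enough counts to be tested. B2m in Inh-Lamp5 was nevertheless at 9 and 11 counts in B6 and at 1 and 0 counts in DBA, which was singled out after its values were seen and carries no test.

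Of the non-neuronal types, astrocytes had 1 of 4 tested members called, beside 18.7% of all symbols. It was H2-T22, lower in DBA at 3.65 and 5.06 CPM against 7.40 and 11.7 CPM in B6, with a log2 fold change of -1.03 (SE 0.348, adjusted p = 0.0374). In mature oligodendrocytes, 1 of 2 was called beside 14.2%, B2m at 7.71 and 12.8 CPM in B6 and 4.32 and 2.70 CPM in DBA, with a log2 fold change of -1.48 (SE 0.484, adjusted p = 0.0425). Microglia had 0 of 4 called beside 8.13%. B2m there had a log2 fold change of 0.61 (SE 0.218, adjusted p = 0.0956), in value opposite to that in neurons. Precursors (11.3%) and NN-VLMC (5.82%) had 0 of 4 and 0 of 3 called. In NN-VLMC the 5 endothelial markers summed to 1031 and 993 CPM in B6 and to 487 and 760 CPM in DBA, and their part in the members' values was not tested.

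**Figure D3:**
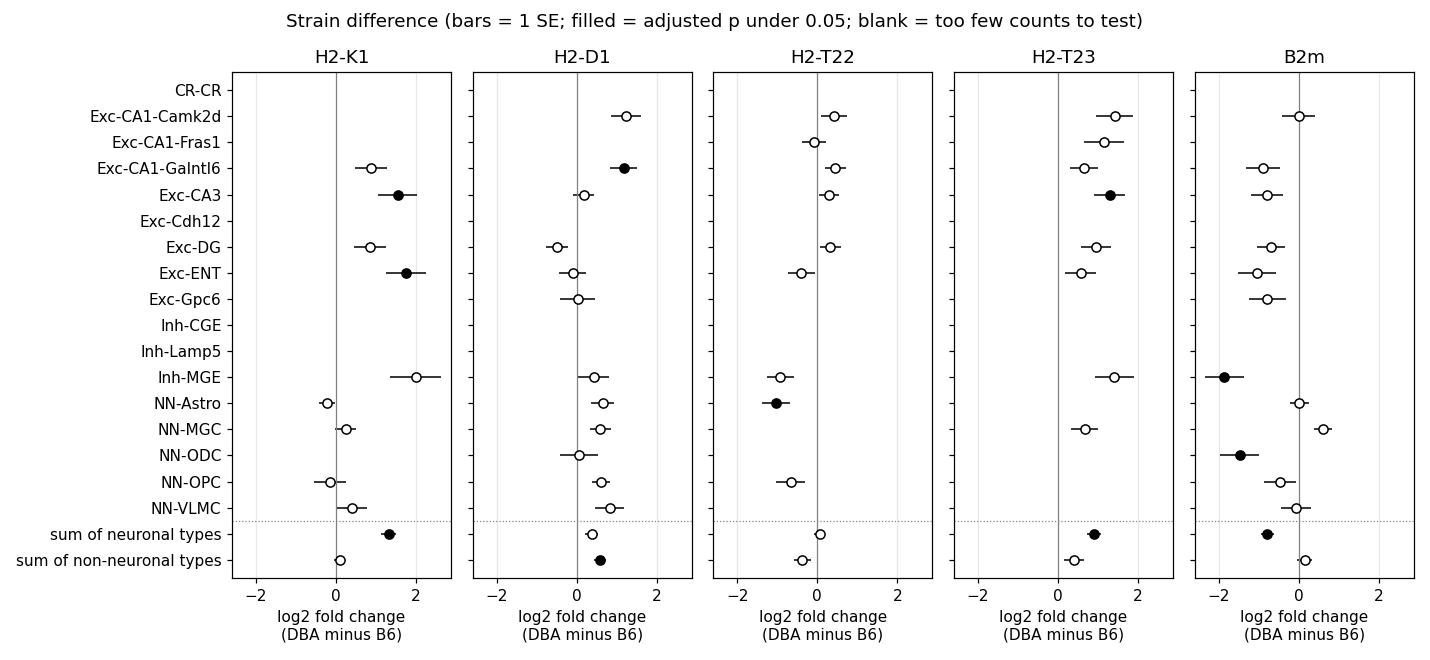
Log2 fold change of DBA over B6 for each gene in each cell type and in the neuronal and non-neuronal sums, with bars of 1 SE, filled points for an adjusted p under 0.05 and no point where counts were too few. H2-K1 and H2-T23 lie right of 0 in all neuronal types tested, and B2m lies left of 0 in most of them.

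With 1 library left out, single types had 5 calls without B6 library 2, 2 without B6 library 3, 1 without DBA library 2 and 2 without DBA library 3, against 3 or 4 in the neuronal sum. Calls in single types rest on few counts, for instance 3 to 15 counts per library for H2-K1 in Exc-CA3.

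At the promoters, each member had a single snATAC-seq peak that held its start site. The peaks were chr17:33999250-34000716 for H2-K1, chr17:35262489-35263994 for H2-D1, chr17:36041854-36043927 for H2-T22, chr17:36031224-36032863 for H2-T23 and chr2:122147162-122148265 for B2m. Each of them holds the promoter bases printed above in whole or, for H2-T23, in part. In the neuronal sums, with 89121907 to 120471933 fragments counted in peaks per library, 4 of 5 promoter peaks passed, beside 11% of all 300819 peaks. Counts were higher in DBA at the peaks of H2-D1, H2-K1 and H2-T22 and lower at that of B2m. The reference holds no gene copies particular to haplotype d, such as H2-L, and their part in these peak counts was not tested.

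The H2-D1 peak was at 14.0 and 14.4 CPM in B6 and at 26.4 and 27.5 CPM in DBA, with a log2 fold change of 0.95 (SE 0.0587, edgeR adjusted p = 7.62e-23). The H2-K1 peak was at 6.95 and 6.71 CPM in B6 and at 10.3 CPM in both DBA libraries, with 0.63 (SE 0.0806, adjusted p = 2.90e-09). The H2-T22 peak was at 14.5 and 13.8 CPM in B6 and at 20.1 and 19.5 CPM in DBA, with 0.52 (SE 0.0624, adjusted p = 2.91e-10). For H2-K1 the peak and the transcript were both higher in DBA neurons, whereas the transcript of H2-T22 did not differ detectably. The B2m peak was at 18.6 and 18.2 CPM in B6 and at 14.4 and 14.1 CPM in DBA, with a log2 fold change of -0.33 (SE 0.0627, adjusted p = 3.57e-05), the direction of its transcript. The H2-T23 peak overlapped between the strains at 8.27 and 8.90 CPM in B6 and 8.66 and 9.11 CPM in DBA, with 0.08 (SE 0.0797, adjusted p = 0.600), although its transcript was higher in DBA.

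Groups without overlap made up 50% of all peaks. The DBA mean was higher in 11 of 11 neuronal types for H2-K1, H2-D1 and H2-T22, as for 0.728% of all peaks, and lower in 11 of 11 for B2m, as for 1.04% of all peaks, while H2-T23 was split 6 to 5. Peaks with few counts seldom have 1 direction in every type, and the share is not adjusted for their depth. These types share their libraries. Non-neuronal nuclei were few in this assay, at 103 to 175 per library, and were not tested. Their promoter peaks at B2m held 47 and 47 counts in B6 and 42 and 43 counts in DBA, or 30.1 and 30.8 against 23.4 and 23.2 CPM. Those at H2-D1 were at 26.2 and 28.8 CPM in B6 and at 59.6 and 40.0 CPM in DBA, and those at H2-T22 at 17.3 and 26.9 CPM in B6 and at 28.4 and 28.1 CPM in DBA. The strains overlapped at H2-K1, with 23.7 and 28.8 CPM in B6 and 40.6 and 21.1 CPM in DBA, and at H2-T23, with 11.52 and 10.5 CPM in B6 and 15.03 and 7.57 CPM in DBA.

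**Figure D4:**
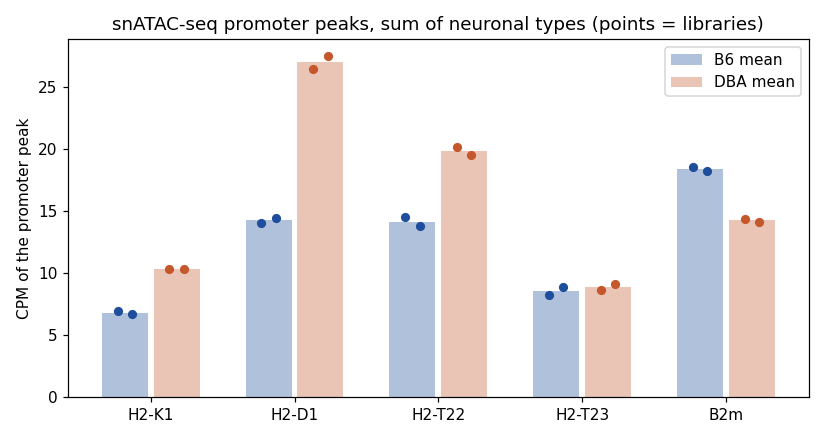
CPM of the snATAC-seq promoter peak of each MHC class I gene in the sum of neuronal types, with points for libraries and bars for the mean of the 2 libraries of a strain. The DBA libraries stand higher at H2-K1, H2-D1 and H2-T22, lower at B2m, and mixed with B6 at H2-T23.

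The other genes of the class I pathway were taken by role. Of the peptide loading genes, which include the Tap1 and Tap2 transporter and its partner tapasin (Tapbp), 8 of 8 were higher in microglia than in neurons, beside 67.3% of all symbols called in either direction, with a median log2 fold change of 2.12 against -0.10 over all symbols. Between strains, 0 of 8 passed in the neuronal sum and 0 of 8 in the non-neuronal sum, beside 34.7% and 19.9% of all symbols, and 1 of 7 tested in single types did, Pdia3. Tap1 was at 0.341 and 0.459 CPM in B6 neurons and at 0.868 and 0.592 CPM in DBA neurons (adjusted p = 0.0692).

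Of the proteasome genes, which cut the peptides, 7 of 8 were higher in microglia, beside 67.3% of all symbols called, among them the immunoproteasome subunits Psmb8, at a log2 fold change of 6.27 (SE 0.563), and Psmb9, at 6.72 (SE 0.565). In the neuronal sum 3 of 6 tested were higher in DBA and 0 lower, beside 34.7% of all symbols called. Psmb5, a constitutive catalytic subunit, was at 9.45 and 10.07 CPM in B6 and at 20.2 and 23.5 CPM in DBA, with a log2 fold change of 1.11 (SE 0.0987), and passed in 7 of the 15 types tested. Psmb10, an immunoproteasome subunit, was at 0.57 (SE 0.140, adjusted p = 0.00841) in neurons.

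Of the regulators of class I transcription, 6 of 14 were lower in DBA in the neuronal sum and 0 higher, a share of 42.9% beside 34.7% of all symbols, with a median log2 fold change of -0.22 against 0.01 over all symbols. Irf1, which binds the interferon response element, was at 12.3 and 12.7 CPM in B6 neurons and at 5.46 and 5.44 CPM in DBA neurons, and passed in 5 of 7 types. Nlrc5, the class I coactivator, was at 1.11 and 1.27 CPM against 0.958 and 0.958 CPM in neurons and did not pass (adjusted p = 0.241), but it was lower in the DBA non-neuronal sum at -1.06 (SE 0.313, adjusted p = 0.0359). Irf2, Nfkb1 and Irf9 passed as lower in 3, 3 and 1 single types. In the same neuronal sums H2-K1 and H2-T23 were higher in DBA, B2m was lower, and no difference was shown for H2-D1 and H2-T22. The part of the regulators in these values was not tested.

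Of the interferon receptor genes, 1 of 4 passed in neurons beside 34.7% of all symbols, Ifngr1, at 4.50 and 4.39 CPM in B6 and 6.41 and 6.57 CPM in DBA (log2 fold change 0.50, SE 0.123, adjusted p = 0.00861). Of the genes listed as class I receptors, not all of which need bind the molecules followed here, 2 passed in single types. Pirb, an inhibitory receptor, was higher in DBA microglia at 45.5 and 50.6 CPM against 27.2 and 18.8 CPM (log2 fold change 1.15, SE 0.351, adjusted p = 0.0444) and lower in the DBA neuronal sum at 0.334 and 0.507 CPM against 1.47 and 1.17 CPM. Klrk1, an activating receptor of natural killer cells, was at 0 in both B6 columns of microglia and at 18.2 and 28.7 CPM in those of DBA. It passed there with a log2 fold change of 6.82, beside 8.13% of all symbols. In these DBA columns 3 counts correspond to 6.83 and 5.06 CPM, so the call rests on few counts. Of the class II genes, 8 of 8 tested were higher in microglia than in neurons, beside 67.3% of all symbols called, at a median log2 fold change of 6.32, and H2-DMa passed as higher in DBA in 3 of 13 types.

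Of the other class I genes, 7 of 21 listed had enough counts in neurons, of which 2 were higher and 1 lower in DBA, 42.9% beside 34.7% of all symbols. H2-T24 was the lower of these, at 33.1 and 34.0 CPM in B6 and at 18.5 and 20.9 CPM in DBA (log2 fold change -0.82, SE 0.0808), and it passed in 8 of 16 types. H2-Q7 was the higher by the most, at 0.0640 and 0.0835 CPM in B6 and 0.490 and 0.676 CPM in DBA (log2 fold change 2.87, SE 0.464, adjusted p = 0.000663). Its B6 values lie near the level of 3 counts, 0.0640 and 0.0627 CPM in these columns, so the size of the change is uncertain. The reference holds no gene copies particular to haplotype d, and their part in this value was not tested. In single types only H2-T24 and H2-M5 of this list passed among the 6 tested.

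Of 137 neighbours of the heavy chain genes between H2-K1 and H2-T23 in the table, 93 were tested in the neuronal sum. There 28 were higher and 14 lower in DBA, which is 45.2% beside 34.7% of all symbols, and the median was 0.15. The genes that passed in the most cell types were Slc39a7, a zinc transporter, lower in 13 of 14 types, H2-Ke6, a dehydrogenase in spite of its name, lower in 12 of 15, and Ddx39b, an RNA helicase, higher in 12 of 17. BC051142 was lower in 10 of 10, Ring1, a Polycomb subunit, lower in 9 and higher in 1 of 17, and Lst1, a leukocyte gene, higher in 9 of 10. Both directions were therefore mixed along the interval, and counts of genes next to H2-K1 (Slc39a7, log2 fold change -2.08 in neurons, 32.3 kb away) could move opposite to it. Gm20427, at chr17:34026034-34031580, overlaps both Slc39a7 and H2-Ke6 on their strand, and its part in their counts was not tested. In the non-neuronal sum 7 were higher and 8 lower of 84 tested, 17.9% beside 19.9% of all symbols.

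**Figure D5:**
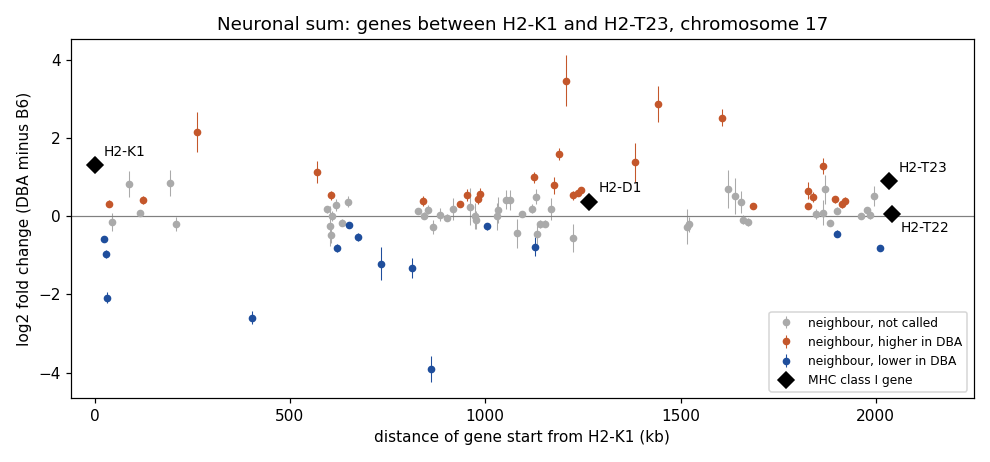
Log2 fold change of DBA over B6 in the neuronal sum for the tested genes between H2-K1 and H2-T23, against the distance of each gene's start from that of H2-K1 in kb, with bars of 1 SE. Diamonds are the MHC class I genes, and colours mark neighbours higher or lower in DBA at an adjusted p under 0.05, which lie side by side along the interval.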

How the data were processed

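The authors sorted nuclei (enriched for NeuN for RNA only), made snRNA-seq and snATAC-seq libraries, aligned reads with Cell Ranger 6.0.2 (introns kept) and Cell Ranger ATAC 2.0.0 to mm10 for B6 and an mm10 with DBA single-base variants for DBA, and integrated and clustered the RNA nuclei with Seurat 4.0.5. Doublets were removed by the authors with DoubletFinder, and no doublet caller was run here. The deposited values used here are raw counts, summed per library and cell type, of genes and of a unified set of peaks. Strain is certain from column names, but the tables number libraries 2 and 3 and the labels number samples 1 and 2, so which labelled sample a library is was not settled, and no step uses it. The methylation samples were not used here.

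Columns were tested with edgeR 4.0.16 (R 4.3.3): TMM normalization, filterByExpr (peaks: at least 10 counts over 4 libraries), quasi-likelihood F test and Benjamini-Hochberg adjustment over all features of a fit, with a threshold of 0.05. DBA minus B6 was fitted per type and in the neuronal and non-neuronal sums, the sums being added after the data were seen. Non-neuronal types were set against the neuronal sum with the library as a term, and the interaction likewise. Symbols needed at least 1 count in each strain (24691 of 33902), as 8204 had counts in DBA only and 960 in B6 only. The methods name a single GENCODE annotation for all reads, which stands beside these uneven numbers. Whether both strains were counted against the same gene list was not settled, and its part in the RNA strain differences was not tested. SE is the absolute log2 fold change divided by the square root of F. DESeq2 1.42.0 and further settings were alternatives. Some of the edgeR fits were also run on simulated counts. There only genes with more counts than many of the members hold in single types were changed, so the simulation does not cover such members. Libraries are pools of animals, so p-values of the strain tests measure the spread between 2 libraries per strain. In the type and interaction tests the library is a term. Their p-values rest on the spread left between columns once the library is taken up.

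Members and gene lists were chosen with earlier results of these data known. The text names the 5 members, the 3 symbols of most like pattern per member (mean of at least 5 CPM), and, per list, at most 6 genes that passed in a type, ordered by number of types and then by size. Other list genes named (the Tap, Psmb8, Psmb9, Nlrc5 and H2-Q7 genes) were chosen after their values were seen. A gene of the regulator list that the rule would name is not reported here.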

Additional observations from a re-analysis of the deposited data

Results flagged for a closer look

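The strain difference differed between cell classes for 2 genes by the interaction test, as non-neuronal minus neuronal on the log2 scale. H2-K1 had a value of -1.25 (SE 0.232, edgeR adjusted p = 0.00316), with 1.06 CPM in B6 and 2.71 CPM in DBA in neurons against 19.0 and 19.5 CPM in the other cells. B2m had a value of 0.88 (SE 0.197, adjusted p = 0.0109), with 3.62 and 2.20 CPM against 23.99 and 25.7 CPM. Its call was not kept with DESeq2, and its value was smaller without DBA library 3. The non-neuronal types were not alike. The log2 fold change of B2m between strains was -1.48 in oligodendrocytes (SE 0.484, adjusted p = 0.0425) and -0.47 in precursors. It was -0.07 in NN-VLMC, 0.02 in astrocytes and 0.61 in microglia, without a call in these types or in precursors.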

How the results depend on the processing

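The numbers of members called at promoter peaks (4) and in the neuronal sum (3, or 4 with library totals, without Exc-DG, without DBA library 3 or with crossed pairing) changed little with the processing. In single types the 7 calls became 0 with DESeq2, 11 without a filter on low counts, 12 with all symbols and 1 to 5 when a library was left out, and the cause was not tested. The interaction had 1 call in place of 2 with DESeq2, where B2m was at 0.92 (adjusted p = 0.107), and 1 to 2 calls when a library was left out. The non-neuronal sum had 0 in place of 1 with DESeq2 (1 at an unadjusted p under 0.05) and 0 to 1 when a library was left out. With the replicate block the single types had 9 calls and the neuronal sum 3, and the non-neuronal sum and the promoter peaks kept 1 and 4. Same-numbered libraries deviated with a correlation of -0.17 in the neuronal sum, and with the crossed pairing there were 11 and 4 calls. Library totals left 8 calls and RLE 8 in single types. Against all other types, 16 of the 19 differences from neurons passed.

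Values that changed sign were small and had no call. With each library left out in turn, H2-D1 ranged from -0.17 (without DBA library 3) to 0.60 in the interaction, H2-T22 from -0.093 (without B6 library 2) to 0.22 in the neuronal sum and B2m from -0.21 (without DBA library 3) to 0.44 in the non-neuronal sum. In astrocytes against neurons, H2-T23 was at 0.011 with DESeq2, 0.015 with RLE and -0.12 to 0.088 without a library, and H2-T22 ranged from -0.084 to 0.47. In oligodendrocytes, H2-T23 ranged from -0.17 to 0.45 without a library and was at -0.11 against all other types, where H2-D1 was at -0.087. Of the other values of single genes, 499 kept direction and call, 38 lost and 26 gained a call. Single types hold few counts of the members, which limits their precision.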
